A study of Mus musculus with 11 samples.

Results

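Immature and mature alveolar macrophages of the same RXR-deficient genotype were compared here across all genes of the deposited RNA-seq table. Both came from 9-week-old C57BL/6J mice, male and female, of the genotype CD11cCre+ Rxrabfl/fl, in which Cre under control of the Cd11c (Itgax) promoter deletes floxed Rxra and Rxrb. Mature alveolar macrophages (mAMs) were sorted as CD11b- SiglecF+ cells and the immature population (ImmAMs) as CD11b+ SiglecF+ cells, at 40000 cells per library. The methods name bronchoalveolar lavage as the source of the cells, and the series' design text names digested lung. The libraries taken were ImmAM_KO replicates 2 to 4 and mAM_KO replicates 1 to 3, that is 6 of the 11 libraries of the series. mAM_KO replicate 4, which carries the same labels, stayed out of the fit and served as a check of direction. The 4 libraries of mAMs from CD11cCre- Rxrabfl/fl mice (mAM_WT) entered the fit only for the estimate of the spread between replicates. ImmAMs of CD11cCre- Rxrabfl/fl mice were not analysed here. A difference below is therefore one between 2 sorted populations that both carry the deletion, and what the deletion adds to it cannot be told apart.

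Alveolar macrophages are the resident macrophages of the air spaces, where they take up and break down surfactant lipid. They arise largely from fetal monocytes, mature around birth under GM-CSF and TGF-β, which induce the nuclear receptor PPARγ, and are maintained in the adult mainly by their own division. RXRs are nuclear receptors that bind DNA as partners of PPARs, LXRs, retinoic acid receptors and the vitamin D receptor. Monocytes that enter the lung can also become alveolar macrophages, and while they mature they gain SiglecF and lose CD11b.

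The reads counted on the 12932 genes of the table were 17964528 to 23545727 per mAM library, 22089589 in mAM_KO replicate 4 and 16659960 to 21335567 per ImmAM library. Levels are given in CPM as deposited, the reads of a gene relative to the TMM-scaled size of its library. Along the first principal component of the 1000 most variable genes, which held 51.6% of the variance, the 3 ImmAM libraries lay at 76.1 to 81.2, the 4 mAM_KO libraries at -33.3 to -11.5 and the mAM_WT libraries at -42.3 to -38.6. The root mean square distance over these genes was 2.19 to 2.29 log2 units between ImmAM libraries, 2.35 to 2.78 between mAM_KO libraries and 3.49 to 4.26 between a library of each population. The plot of principal components shows this separation.

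**Figure D1:**
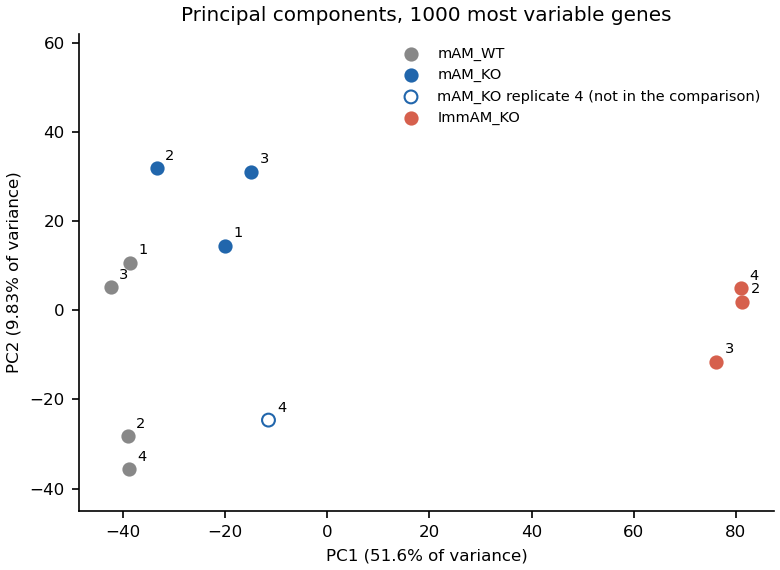
First and second principal component (share of variance on each axis) of log2 CPM of the 1000 most variable genes, 1 point per library, numbered by replicate. The 3 ImmAM_KO libraries lie between 76.1 and 81.2 on the first component, apart from all 8 mAM libraries, and mAM_KO replicate 4 (open circle) lies at -11.5.

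The labels were checked against the genes behind the gates and the deletion. Itgam (CD11b) was at 7.87, 3.93 and 9.95 CPM in mAMs and 168, 174 and 168 CPM in ImmAMs. Siglecf was at 223, 241 and 198 CPM in mAMs and 19.3, 19.7 and 19.7 CPM in ImmAMs. Itgam went the way of the gate. SiglecF was positive in both gates, so the gate as described does not set the fall of Siglecf in ImmAMs (log2 -3.49, adjusted p = 9.23e-12). Whether the sorted cells differed in SiglecF protein within the gate was not tested. Since sorting used both proteins, these values are a description and no result. In the GENCODE vM21 annotation of GRCm38, 65.9% of the 60-base windows of Itgam also lie in a readthrough transcript, so its value is uncertain. Rxra was at 347, 334 and 351 CPM in mAMs and 286, 305 and 283 CPM in ImmAMs. Rxrb was at 46.3, 52.8 and 39.3 CPM in mAMs and 33.4, 35.2 and 31.9 CPM in ImmAMs. Both were called lower in ImmAMs (log2 -0.24 and -0.45), but the call of Rxra was lost without mAM_KO replicate 1 or 3 or ImmAM_KO replicate 2 or 4 (adjusted p up to 0.0840), and that of Rxrb without mAM_KO replicate 2 or ImmAM_KO replicate 4 (adjusted p up to 0.0747). These values cover whole genes and so include reads from exons that the deletion leaves, and they do not measure how complete the deletion was. Xist was at 458, 55.5 and 237 CPM in mAMs and 324, 302 and 345 CPM in ImmAMs. Each of these libraries also had reads from 4 Y-linked genes (Ddx3y at 46.2, 106 and 79.3 CPM in mAMs and 69.3, 64.5 and 68.1 CPM in ImmAMs), so all 6 held RNA of both sexes and the mAM libraries varied more in the share.

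Markers of other cell types set a limit on what else the gates could hold. Of the defining markers of T cells, NK cells, fibroblasts and mast cells, none is among the genes of the table, which the authors limited to those reaching 1 CPM in 3 or more samples. The same holds for Cd79a of B cells, Ly6g of neutrophils, Sftpc of alveolar type 2 cells, Epx and Prg2 of eosinophils, and Ly6c2 of monocytes. The summed level of the neutrophil genes in the table was 31.9 to 41.2 CPM in mAMs and 53.1 to 63.02 CPM in ImmAMs, with Csf3r taking most of it. The 3 B cell genes in the table summed to 0.439 to 3.72 CPM and 6.75 to 8.11 CPM, and the 3 dendritic cell genes, mostly Clec9a, to 7.16 to 9.95 CPM and 22.2 to 25.2 CPM. A larger shift was in the list of interstitial macrophage markers (7 of 10 in the table, without Lyve1, Folr2 and Tmem119), which summed to 3.67 to 12.8 CPM in mAMs and 293 to 316 CPM in ImmAMs. Its members, with C1qa, C1qb, C1qc, Cx3cr1, Cd163 and Pf4 among them, are also expressed by macrophages that derive from monocytes. C1qa, C1qb and C1qc reached the filter only through the ImmAM libraries, so the direction of their part of the shift was set by the filter. Of the 8 alveolar type 2 genes the table holds Abca3, a lipid transporter, which was not called at 157, 142 and 151 CPM in mAMs and 156, 168 and 157 CPM in ImmAMs, and Napsa, an aspartic protease, which was called higher, at 2.1, 1.34 and 4.24 CPM in mAMs and 8.97, 9.21 and 8.53 CPM in ImmAMs. Of the 7 endothelial genes it holds Vwf, von Willebrand factor, which was at 154, 131 and 153 CPM in mAMs and 309.9, 332 and 299.7 CPM in ImmAMs (log2 1.10 ± 0.0884, adjusted p = 7.07e-07), and not Cdh5 or Pecam1. Of the 7 airway genes it holds Scgb1a1, at most 1.76 CPM in these libraries and not called, and Tppp3, a tubulin-binding protein, at 149.9, 150 and 203 CPM in mAMs and 258, 264 and 257 CPM in ImmAMs (log2 0.65 ± 0.157, adjusted p = 0.00549). In bulk RNA, fewer cells of a type and less RNA per cell cannot be told apart, and the part of such cells in the results below was not tested.

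Limma called 4891 of 12889 genes tested (37.9%), 2283 of them higher (17.7%) and 2608 lower (20.2%) in ImmAMs than in mAMs. The median log2 fold change of all genes tested was -0.01. Below, log2 fold changes of ImmAMs against mAMs are given ± SE with their adjusted p. Among the called genes, 890 rose (6.91% of all tested) and 777 fell (6.03%) by a fold of at least 2, and 224 rose and 187 fell by a fold of at least 8. The libraries of the populations did not overlap for 51.2% of all genes tested. Against mAM_KO replicate 4 alone, 94.2% of the genes called higher and 96.8% of those called lower kept their direction. mAM_KO replicate 4 lay on the mAM side of all 3 ImmAM libraries for 89.8% and 92.6% of them. For folds under 1.5, that share was 81.9% of the genes called higher and 90.1% of those called lower. The counts of each list below are read against these shares, 17.7% higher and 20.2% lower. Among the genes named below, over 20% of the 60-base windows (the read length) are shared with another annotated gene for Acaa1b, C2, C4b, Ccnb1, Chil3, Ear1, Ear2, Etfb, Fdps, Fpr2, Itgam, Lilrb4a, Rpl10-ps1, Rps12 and S100a4, whose values are uncertain.

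**Figure D2:**
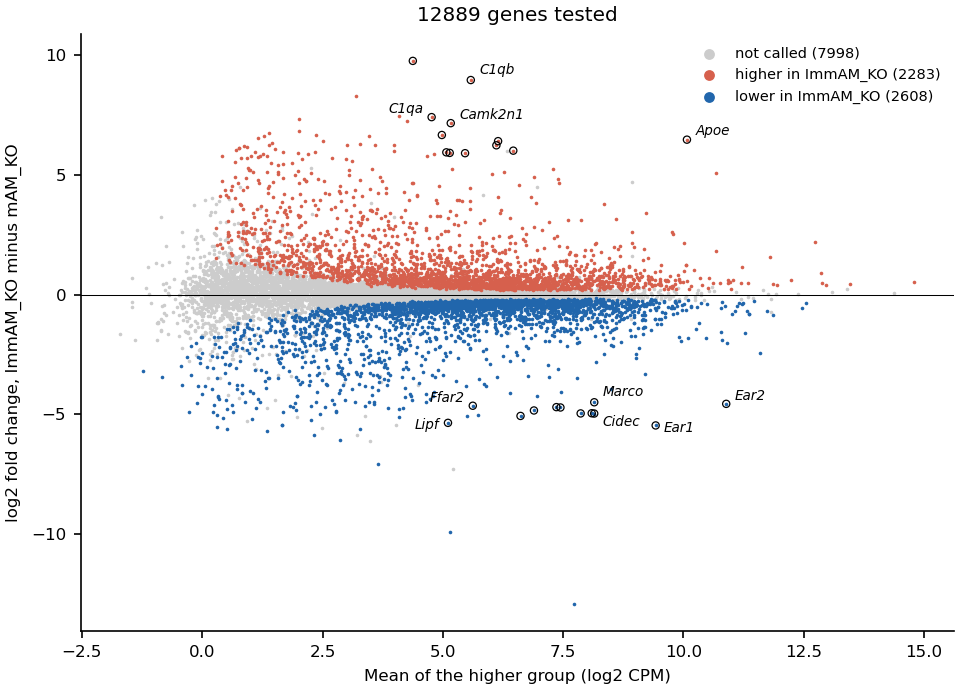
Log2 fold change of ImmAM_KO against mAM_KO (vertical axis) for each of 12889 genes tested, against log2 of the mean CPM of the group in which the gene is higher (horizontal axis). Colours give the 2283 genes called higher, the 2608 called lower and the genes not called. Rings mark the 12 largest rises and 12 largest falls among well-detected genes that also had mAM_KO replicate 4 on the mAM side. Apoe (log2 fold change 6.47) lies far to the right among the rises and Ear2 (-4.56) among the falls.

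Called genes were ranked where the higher population averaged 20 CPM or more and the populations did not overlap. The rule also asked for mAM_KO replicate 4 on the mAM side of every ImmAM library, and passed over predicted genes. By this rule the 12 largest falls were Ear1, Lipf, Kcnj15, Cidec, Krt79, Slco2b1, Fabp1, Acaa1b, Cpne5, Ffar2, Ear2 and Marco. Ear1 and Ear2 encode RNases of the eosinophil-associated family that mature alveolar macrophages express. Ear2 (ENSMUSG00000072596, chromosome 14, 44102654 to 44103534) was at 1786, 2124 and 1776 CPM in mAMs and 83.5, 74.2 and 82.3 CPM in ImmAMs, and at 1843 CPM in mAM_KO replicate 4 (log2 -4.56 ± 0.0904, adjusted p = 7.69e-12). Ear1 was at 698, 866 and 494 CPM in mAMs and 16.1, 14.7 and 14.6 CPM in ImmAMs (log2 -5.46 ± 0.151, adjusted p = 8.59e-11). The libraries of the populations were far apart for both genes, but Ear1 and Ear2 share 49.1% and 32.7% of their 60-base windows with each other and with further copies, so their separate values are uncertain. Marco, a scavenger receptor for bacteria and particles, was at 283, 286 and 281 CPM in mAMs and 13.02, 13.8 and 10.9 CPM in ImmAMs (log2 -4.50 ± 0.0987, adjusted p = 9.23e-12). Its 4 mAM_KO libraries differed little, with 285 CPM in replicate 4. Lipf, a lipase of the gastric type, was at 33.9, 29.9 and 39.5 CPM in mAMs and 0.685, 1.04 and 0.814 CPM in ImmAMs. Ffar2, a receptor for short-chain fatty acids, was at 53.6, 45.8 and 48.3 CPM in mAMs and 2.18, 1.65 and 2.13 CPM in ImmAMs. Slco2b1, an organic anion transporter, fell from 273 ± 22.8 to 8.87 ± 1.59 CPM (SD, n = 3 and 3), and Kcnj15, a potassium channel, from 97.9 ± 30.2 to 2.902 ± 0.857 CPM, where mAM_KO replicate 4 was at 48.1 CPM.

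The 12 largest rises by the same rule included C1qb, C1qa, Camk2n1, Rasgrp1, Apoe, C3ar1, Pianp, Lat2, Syngr1 and Slamf7. Among these, C1qb, C1qa, Camk2n1 and Rasgrp1 reached the filter only through the ImmAM libraries, so the filter set their direction. Apoe, the apolipoprotein that macrophages secrete with cholesterol, was at 10.2, 15.7 and 11.1 CPM in mAMs and 1038, 1186 and 1005 CPM in ImmAMs (log2 6.47 ± 0.191, adjusted p = 1.17e-10). It was, of the 12, the rise with the most reads in ImmAMs, and mAM_KO replicate 4 was at 11.5 CPM. Rasgrp1, an activator of RAS, was at 0.208, 0.191 and 0.748 CPM in mAMs and 29.1, 31.01 and 34.5 CPM in ImmAMs. Slamf7, a receptor of the SLAM family, was at 1.08, 0.489 and 0.748 CPM in mAMs and 42.6, 44.8 and 44.8 CPM in ImmAMs. Lat2, an adaptor of immune receptor signalling, was at 0.162, 1.59 and 0.637 CPM in mAMs and 33.95, 34.2 and 32.8 CPM in ImmAMs, and Camk2n1, an inhibitor of CaMKII, at 0.346, 0.149 and 0.305 CPM in mAMs and 34.2, 37.9 and 35.4 CPM in ImmAMs. Each of the 12 was higher in all 3 ImmAM libraries than in all 4 mAM_KO libraries, which the rule that chose them required.

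Of the 42 tested members of a list of alveolar macrophage identity genes, 29 fell and 5 rose in ImmAMs (median log2 fold change -0.83). Besides the genes above, those that fell included Krt79, a keratin, at 181, 402 and 116 CPM in mAMs and 6.65, 5.96 and 7.01 CPM in ImmAMs (log2 -4.96 ± 0.308, adjusted p = 8.2e-08). Krt79 varied widely among the mAM libraries, and each of them still lay far above every ImmAM library. Krt19 fell from 363 ± 109.9 to 22.6 ± 1.38 CPM, Vstm2a from 109 ± 11.1 to 10.6 ± 2.02 CPM, Car4, a carbonic anhydrase, from 370.1 ± 43.9 to 106 ± 5.22 CPM, and Cpne5, a calcium-binding copine, from 164 ± 50.6 to 6.102 ± 0.563 CPM. The mannose receptor gene Mrc1 fell from 2627 ± 29.99 to 1488 ± 53.9 CPM (log2 -0.82 ± 0.0897, adjusted p = 1.17e-05), and Siglec1 (CD169) from 516 ± 81.9 to 82.96 ± 10.1 CPM (log2 -2.63 ± 0.116, adjusted p = 4.36e-09). The genes that did not pass the test included some that are central to the type. Pparg was at 219, 233 and 224 CPM in mAMs and 219.5, 218 and 215 CPM in ImmAMs (log2 -0.05 ± 0.0787, adjusted p = 0.65). Chil3, a chitinase-like secreted protein, was at 17690, 19340 and 23890 CPM in mAMs and 21310, 20270 and 21940 CPM in ImmAMs (log2 0.07 ± 0.145, adjusted p = 0.734), and Ccl6 and Plet1 had log2 fold changes of 0.01 and 0.07. The 5 members that rose were Mmp8 (178 to 884 CPM), Ctsk (454 to 1060 CPM), Fabp5 (192 to 292 CPM), Mcoln3 (243 to 349 CPM) and Bhlhe41 (208 to 270.4 CPM). The call of Bhlhe41, a repressor that supports the self-renewal of these cells, was lost without mAM_KO replicate 2 (adjusted p = 0.0610).

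**Figure D3:**
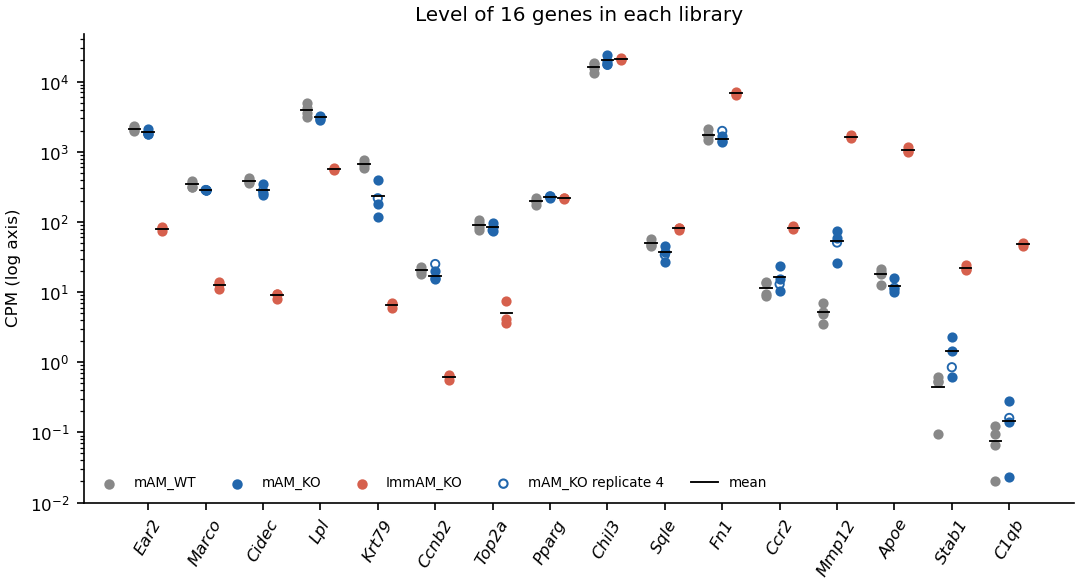
CPM (log axis) of 16 genes in each library of mAM_WT, mAM_KO and ImmAM_KO, with black bars at the mean and mAM_KO replicate 4 as an open circle outside the mean. ImmAM_KO libraries lie below all mAM libraries for Ear2, Marco, Cidec, Lpl, Krt79, Ccnb2 and Top2a, among them for Pparg and Chil3, and above them from Sqle to C1qb.

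Genes of lipid handling fell with the identity genes. PPARγ with RXR is known to drive the storage and burning of fatty acids, and of 24 PPAR target genes tested 20 fell and 2 rose (median -1.10), 1 of the latter being lost without mAM_WT replicate 2, mAM_KO replicate 1 or 3 or any ImmAM library. Lpl, the lipase that frees fatty acids from lipoproteins, was at 3194, 2920 and 3155 CPM in mAMs and 577, 541 and 573 CPM in ImmAMs (log2 -2.45 ± 0.137, adjusted p = 2.95e-08). Cidec, a lipid droplet protein, was at 261, 349 and 239 CPM in mAMs and 7.898, 9.53 and 9.43 CPM in ImmAMs (log2 -4.97 ± 0.127, adjusted p = 3.58e-11), and mAM_KO replicate 4 at 279 CPM. Fabp1, a fatty acid carrier, was at 138, 146 and 72.4 CPM in mAMs and 2.95, 4.801 and 4.38 CPM in ImmAMs (log2 -4.84 ± 0.248, adjusted p = 1.38e-08). Angptl4, an inhibitor of Lpl, was at 113, 139 and 122 CPM in mAMs and 6.59, 8.001 and 5.59 CPM in ImmAMs (log2 -4.22 ± 0.144, adjusted p = 4.61e-10). Pdk4, which holds back the use of pyruvate, was at 15.1, 20.8 and 25.1 CPM in mAMs and 1.22, 1.14 and 0.814 CPM in ImmAMs, and Plin2, the main coat protein of macrophage lipid droplets, at 1221, 1454 and 1191 CPM in mAMs and 572, 589 and 554 CPM in ImmAMs (log2 -1.17 ± 0.0867, adjusted p = 3.83e-07). In all 6 genes, which were picked among the called ones, the populations did not overlap, as in 51.2% of all genes tested. The 2 members that rose were Fabp5 and Txnip, and the call of Txnip was lost in several alternatives (adjusted p up to 0.125). Of the 35 tested genes of lipid uptake and storage, which share members with the PPAR list, 21 fell and 8 rose. The triglyceride synthesis genes Dgat1 (69.1 to 25.8 CPM), Gpat3 (37.7 to 15.2 CPM) and Lpin1 (311 to 126 CPM) fell, as did the lipoprotein receptor genes Scarb1 (107 to 45.7 CPM) and Olr1 (502 to 222 CPM). Those that rose included Msr1, the class A scavenger receptor, at 94.9, 70.4 and 150.5 CPM in mAMs and 426, 366 and 434 CPM in ImmAMs (log2 2.02 ± 0.267, adjusted p = 5.9e-05), and Npc1 (516 to 674 CPM) and Npc2 (464 to 732 CPM), which move cholesterol out of lysosomes.

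Fatty acid oxidation takes place in mitochondria and peroxisomes, and 33 of 47 tested genes of both pathways fell while 2 rose (median -0.61). Their summed level was 6931 to 7291 CPM in mAMs, 7700 CPM in mAM_KO replicate 4 and 4180 to 4404 CPM in ImmAMs. Cpt1a, which brings long-chain fatty acids into mitochondria, was at 560.1, 609.9 and 535 CPM in mAMs and 215, 227 and 212 CPM in ImmAMs (log2 -1.38 ± 0.0685, adjusted p = 1.06e-08). Hadha, of the mitochondrial trifunctional protein, was at 311, 316 and 286 CPM in mAMs and 146, 141 and 129 CPM in ImmAMs (log2 -1.14 ± 0.0703, adjusted p = 7.89e-08). Among the peroxisomal enzymes, Hsd17b4 fell from 364 ± 14.2 to 129 ± 9.44 CPM, Ehhadh from 28.8 ± 5.54 to 7.85 ± 0.548 CPM and Acaa1b from 174 ± 52.3 to 6.399 ± 0.182 CPM, the last sharing 27.3% of its windows with Acaa1a. Etfb, which passes electrons on to the respiratory chain, fell from 114 ± 8.53 to 44.1 ± 6.899 CPM, and the uncoupling protein gene Ucp3 from 93.6 ± 17.6 to 15.99 ± 1.03 CPM. One of the 2 genes that rose was Echs1, by little (log2 0.34), and its call was lost in 1 alternative (adjusted p = 0.0538). Without mAM_WT replicate 1 or 2, any 1 of the mAM_KO libraries or ImmAM replicate 3 or 4, 1 gene of the list was called higher.

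Cholesterol synthesis moved the other way. Of 26 tested genes of the pathway and its control, 20 rose and 0 fell by limma (median 0.86), 0 also at an unadjusted p under 0.05, by edgeR and by DESeq2. Of the 6 not called, 2 had negative log2 fold changes. Their sum was 1090 to 1450 CPM in mAMs, 1331 CPM in mAM_KO replicate 4, 1485 to 1624 CPM in mAM_WT and 2153 to 2227 CPM in ImmAMs. Sqle, an enzyme that limits the rate of the pathway, was at 37.8, 45.5 and 26.7 CPM in mAMs and 77.2, 82.4 and 82.8 CPM in ImmAMs (log2 1.17 ± 0.156, adjusted p = 6.51e-05). Srebf2, the factor that induces these genes when sterols are low, was at 122, 126 and 109 CPM in mAMs and 228, 270.3 and 239.9 CPM in ImmAMs (log2 1.05 ± 0.0906, adjusted p = 1.44e-06). Cyp51 rose from 60.9 ± 15.3 to 137 ± 8.46 CPM, Fdps from 35.2 ± 9.68 to 84.2 ± 2.26 CPM and Sc5d from 18.5 ± 4.09 to 56.8 ± 0.873 CPM. Hmgcs1, an early enzyme, did not pass the test (log2 0.09 ± 0.1304, adjusted p = 0.632). Of the fatty acid synthesis list, 4 of 18 genes rose and 2 fell. The share that rose, 22.2%, is near the 17.7% of all genes, and 12 were not called. Those that rose were Elovl7 (1.33 to 21.9 CPM), Fads1 (5.68 to 22.1 CPM), Scd2 (90.03 to 279 CPM) and Fasn (73.1 to 124 CPM).

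Targets of LXRs, the oxysterol receptors that also pair with RXR, split, with 7 of 20 genes higher and 7 lower. Apoe, Arl4c (15.3 to 53.6 CPM) and Smpdl3a (328 to 505 CPM) rose. Nr1h3, which encodes LXRα, was at 28.97, 34.7 and 22.4 CPM in mAMs and 4.86, 6.703 and 6.12 CPM in ImmAMs (log2 -2.27 ± 0.169, adjusted p = 3.9e-07). Abcg1, which exports cholesterol, was at 2551, 2635 and 2297 CPM in mAMs and 816, 850.5 and 808 CPM in ImmAMs (log2 -1.59 ± 0.0806, adjusted p = 1.23e-08), Pltp, a phospholipid transfer protein, fell from 168 ± 30.9 to 19.2 ± 1.99 CPM, and Mylip, a ubiquitin ligase, from 60.4 ± 5.18 to 26.2 ± 3.44 CPM. Abca1 did not pass the test (log2 -0.36 ± 0.155, adjusted p = 0.0853), nor did Nr1h2, which encodes LXRβ (0.19).

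Genes of cell division fell, and of the 37 lists that of the G2 and M phases had the lowest median. Of 54 tested genes of the G2 and M phases, 48 fell and 2 rose (median -2.68), and of 43 S phase genes 38 fell and 0 rose by limma (median -1.11). At an unadjusted p under 0.05, 1 S phase gene was higher, and edgeR and DESeq2 each called 1 higher, as limma did without mAM_WT replicate 4 or mAM_KO replicate 2. Ccnb2, a mitotic cyclin, was at 15.7, 19.99 and 15.4 CPM in mAMs and 0.566, 0.626 and 0.656 CPM in ImmAMs, and at 25.1 CPM in mAM_KO replicate 4 (log2 -4.78 ± 0.169, adjusted p = 5.73e-10). Top2a, the topoisomerase that unlinks chromosomes, was at 84.5, 95.95 and 73.3 CPM in mAMs and 3.61, 4.11 and 7.54 CPM in ImmAMs (log2 -4.13 ± 0.224, adjusted p = 2.4e-08). ImmAM replicate 4 was the highest ImmAM library for Top2a, and every mAM_KO library was far above it. Cenpf, of the kinetochore, fell from 19.98 ± 4.09 to 1.19 ± 0.539 CPM, Nusap1, of the spindle, from 18.5 ± 6.17 to 1.21 ± 0.209 CPM, and Ube2c, of the machinery that ends mitosis, from 11 ± 2.13 to 0.536 ± 0.266 CPM. Of the S phase genes, Rrm2, which makes deoxynucleotides, was at 27.2, 32.7 and 24.8 CPM in mAMs and 1.82, 2.06 and 1.23 CPM in ImmAMs (log2 -4.07 ± 0.186, adjusted p = 5.94e-09). Uhrf1, which maintains DNA methylation, was at 15.6, 23.6 and 17.4 CPM in mAMs and 3.67, 2.11 and 1.55 CPM in ImmAMs, and the helicase subunit gene Mcm5 at 27.5, 27.2 and 16.5 CPM in mAMs and 3.43, 4.52 and 4.02 CPM in ImmAMs (log2 -2.54 ± 0.1996, adjusted p = 6.09e-07). The genes that rose in the G2 and M list were Gas2l3 (46.4 to 66.5 CPM) and Lbr (13.2 to 17.4 CPM), the call of Lbr being lost in some alternatives (adjusted p up to 0.185). DNA repair genes fell too, 33 of 59 (median -0.37), with the genes of homologous recombination Brca1 (9.304 to 0.935 CPM) and Bard1 (4.796 to 0.715 CPM) among the largest falls and Parp1 (67.6 to 90.7 CPM) higher.

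Of 29 tested regulators of the cycle 13 fell and 6 rose, the latter near the share among all genes and 3 without mAM_KO replicate 2 or 3 or ImmAM replicate 3 or 4. Foxm1 and Mybl2, which encode activators of mitotic genes, fell from 14.5 ± 1.46 to 1.52 ± 0.253 CPM and from 4.67 ± 0.345 to 1.35 ± 0.2703 CPM, and the cyclin genes Ccna2 and Ccnb1 from 24.96 ± 3.19 to 1.43 ± 0.2905 CPM and from 14.5 ± 2.18 to 0.584 ± 0.289 CPM. The G1 regulators Cdk6 and Ccnd2 were at 213, 204 and 185 CPM in mAMs and 95.3, 92.6 and 80.01 CPM in ImmAMs (log2 -1.17 ± 0.0921, adjusted p = 6.18e-07) and at 354, 266 and 298 CPM in mAMs and 144, 133 and 143 CPM in ImmAMs (log2 -1.11 ± 0.0985, adjusted p = 1.74e-06). Ccnd1, another D-type cyclin, rose from 3.32 ± 0.906 to 14.5 ± 1.69 CPM. Of the CDK inhibitors, Cdkn1a (p21) was at 132, 110.3 and 103 CPM in mAMs and 161, 169 and 156 CPM in ImmAMs (log2 0.50 ± 0.0949, adjusted p = 0.00106), and mAM_KO replicate 4 was at 146 CPM. Cdkn2d rose from 8.75 ± 0.873 to 14.1 ± 1.17 CPM, and Cdkn2c fell from 7.86 ± 1.65 to 2.75 ± 1.53 CPM. Cdkn1b did not pass the test (0.05). Cdkn2a was called higher (log2 1.05 ± 0.383, adjusted p = 0.0451), but mAM_KO replicate 4, at 11.4 CPM, lay above the ImmAM libraries, at 7.12, 6.79 and 7.38 CPM, and the call was lost in several alternatives, that library in the fit among them (adjusted p up to 0.373).

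Promoters of called list members were read from RefSeq (GRCm38.p6, 250 bases before to 50 bases after the start, the first entry of each gene). Mitotic genes are known to carry 2 elements there, the cell cycle gene homology region (TTTGAA) and the CCAAT box (CCAAT), each searched on both strands. Of the 48 genes of the G2 and M list that fell, 41 had a promoter entry, and 28 of these (68.3%) held TTTGAA, against 12.3% of the 9428 genes tested that had an entry and 18.1% of all 27025 genes of the promoter table. CCAAT stood in 31 of the 41 (75.6%) and in 39.8% and 37.9% of those sets, and both elements together in 56.1% against 5.36% and 7.12%. Of 29 S phase genes that fell and had an entry, 21 held CCAAT (72.4%), 5 held TTTGAA (17.2%) and 6 held the E2F motif TTTNGCGC (20.7%, against 2.57% of genes tested). Of 13 cholesterol synthesis genes that rose and had an entry, 12 held CCAAT (92.3%). In all, 13 motifs were searched, also in called members of the identity, PPAR target, fatty acid oxidation, tissue macrophage and ribosome lists. In these sets CCAAT stood in 28.6% to 41.4% and TTTGAA in 6.25% to 9.09%. AGGNCA repeated after 1 base stood in 2 of 22 identity genes and 1 of 14 PPAR targets, against 0.233% of genes tested. AGGTCA so repeated stood in 0 of either. GAGGAAGT stood in 4 of 16 tissue macrophage genes (3.45% of genes tested) and TGACGTCA in 6 of 57 ribosomal genes (3.33%). Besides CCAAT, the 13 promoters of cholesterol synthesis genes held CACGTG (E-box) in 3, against 10.7% of genes tested, and TTTGAA in 1. None of them held TTTNGCGC, ATCAC and CCAC 1 base apart (sterol response element, in 0.106% of genes tested), AGGTCA repeated after 1 or 4 bases (direct repeats 1 and 4), AGGNCA repeated after 1 base, which includes direct repeat 1, AACT before AGGNCA (RXR and PPAR site with its flank), TGCTGA and GCA 4 bases apart (MAF element), GAGGAAGT (PU.1), TGACGTCA (cAMP response element) or GCGC 6 bases before TTTGAA, which contains TTTGAA. The matches are descriptions of letters in these windows, and binding was not measured. Of the 54 tested members of the G2 and M list 48 fell, so its shares describe the list and not the fall.

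The 3 promoters of the G2 and M list below are those with the largest falls among genes that met this rule. The rule asked for 10 CPM or more in the higher population, 1 promoter entry, both elements and no annotated exon within the stretch. TTTGAA, on either strand, begins 167 bases before the start in Ccnb2, 179 and 23 in Top2a and 19 in Kif11. Each is the 250 bases before the start, 5′ to 3′ on the strand of the gene, with TTTGAA and CCAAT, or their reverse complements, in capitals. Ccnb2 lies at chr9:70421555-70421804 (minus strand), Top2a at chr11:99024190-99024439 (minus strand) and Kif11, a spindle motor whose level fell from 27.3 ± 4.303 to 2.75 ± 1.12 CPM, at chr19:37376132-37376381 (plus strand). The Top2a stretch holds 6 CCAAT boxes and that of Ccnb2 holds 3.
Ccnb2: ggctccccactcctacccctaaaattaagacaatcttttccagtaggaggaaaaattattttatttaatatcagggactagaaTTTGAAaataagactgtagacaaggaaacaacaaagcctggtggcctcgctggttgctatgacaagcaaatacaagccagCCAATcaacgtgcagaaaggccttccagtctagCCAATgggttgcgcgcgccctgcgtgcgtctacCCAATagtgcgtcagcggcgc
Top2a: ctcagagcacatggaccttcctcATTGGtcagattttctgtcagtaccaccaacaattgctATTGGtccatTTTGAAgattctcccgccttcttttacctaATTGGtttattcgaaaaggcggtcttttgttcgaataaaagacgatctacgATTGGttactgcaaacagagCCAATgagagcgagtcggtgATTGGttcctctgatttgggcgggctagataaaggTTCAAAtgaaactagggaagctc
Kif11: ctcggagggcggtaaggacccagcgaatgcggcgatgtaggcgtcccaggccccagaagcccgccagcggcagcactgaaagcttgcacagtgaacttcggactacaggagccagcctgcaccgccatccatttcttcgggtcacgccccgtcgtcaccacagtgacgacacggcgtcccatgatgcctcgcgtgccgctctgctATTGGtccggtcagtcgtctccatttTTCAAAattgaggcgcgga

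For the cholesterol synthesis genes, the 2 promoters below were chosen by the same rule with CCAAT as the only element, which is in capitals on either strand. They are Sc5d at chr9:42264301-42264550 (minus strand) and Mvd, which encodes mevalonate diphosphate decarboxylase and rose from 64.1 ± 4.17 to 87.95 ± 9.27 CPM (84.1 CPM in mAM_KO replicate 4), at chr8:122443423-122443672 (minus strand).
Sc5d: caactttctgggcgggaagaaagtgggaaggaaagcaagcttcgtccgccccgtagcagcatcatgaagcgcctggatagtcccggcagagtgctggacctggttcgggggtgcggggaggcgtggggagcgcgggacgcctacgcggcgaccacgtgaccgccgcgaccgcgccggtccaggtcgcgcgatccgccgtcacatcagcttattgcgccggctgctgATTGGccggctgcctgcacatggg
Mvd: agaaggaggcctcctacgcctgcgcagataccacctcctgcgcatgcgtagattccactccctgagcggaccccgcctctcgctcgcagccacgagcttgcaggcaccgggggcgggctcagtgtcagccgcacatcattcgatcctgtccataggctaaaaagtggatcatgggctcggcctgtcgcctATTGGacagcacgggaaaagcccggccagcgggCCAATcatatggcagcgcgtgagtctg

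Genes of tissue macrophages, and of macrophages that derive from monocytes, rose. Of 24 tested, 19 were higher and 2 lower (median 3.87, or 1.33 to 1.46 over the 16 genes still tested when an ImmAM library was left out, since genes absent from mAMs then failed the filter). Of those 16, 11 were higher and 2 lower. C1qa, C1qb and C1qc encode the chains of the complement component C1q. C1qb had 8 reads in the 3 mAM libraries together and 2753 in the ImmAM libraries, a ratio of CPM of 379 (exact 95% counting interval 192 to 880), at 45.8, 49.8 and 47.97 CPM in ImmAMs. For C1qa the reads were 10 and 1566 (ratio 173, interval 93.6 to 361) and for C1qc 11 and 1105 (ratio 111, interval 61.6 to 222). These intervals cover counting error only. Stab1, a scavenger receptor, was at 2.29, 0.616 and 1.47 CPM in mAMs and 20.5, 24.3 and 21.2 CPM in ImmAMs (log2 4.11 ± 0.663, adjusted p = 0.000314). Trem2, a lipid-sensing receptor, rose from 64.9 ± 15.7 to 162 ± 4.32 CPM (log2 1.34 ± 0.1403, adjusted p = 7.87e-06). The 2 genes that fell were Mertk, a receptor for dying cells, at 438, 460.1 and 348 CPM in mAMs and 233, 242 and 220.1 CPM in ImmAMs (log2 -0.83 ± 0.0929, adjusted p = 1.37e-05), and Selenop (628 to 401 CPM). Adgre1 (F4/80) did not pass the test (log2 0.20 ± 0.0785, adjusted p = 0.0635). The interstitial macrophage markers named above are part of this list, and so their sum moves with it.

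Of 18 tested genes of the complement system 8 were higher, the gated Itgam among them, and 7 lower. When any 1 ImmAM library was left out, 3 genes failed the filter, 5 of 15 were higher and 7 lower, and the median turned from 0.30 to between -0.33 and -0.32. C3ar1, the receptor for C3a, was at 0.439, 0.574 and 2.299 CPM in mAMs and 75.7, 68.3 and 68.7 CPM in ImmAMs (log2 6.41 ± 0.523, adjusted p = 8.61e-07). C5ar1, the receptor for C5a, was at 348, 396 and 322 CPM in mAMs and 123, 127 and 114 CPM in ImmAMs (log2 -1.55 ± 0.0993, adjusted p = 1.08e-07). C3 itself fell from 395 ± 53.98 to 220.5 ± 21.8 CPM (log2 -0.84 ± 0.123, adjusted p = 0.000146) and properdin (Cfp) from 148 ± 17.8 to 110.5 ± 3.82 CPM. C4b and C2, of the classical pathway, rose from 7.402 ± 1.62 to 21.7 ± 3.17 CPM and from 1.604 ± 0.175 to 5.85 ± 1.001 CPM.

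Of 17 tested receptors for chemoattractants, 11 rose and 4 fell (median 0.77). Ccr2, which brings monocytes out of the bone marrow, was at 10.4, 15.2 and 23.2 CPM in mAMs and 83.7, 78.97 and 86.4 CPM in ImmAMs (log2 2.42 ± 0.2502, adjusted p = 7.05e-06). Cx3cr1, the fractalkine receptor, was at 4.68, 1.51 and 8.34 CPM in mAMs and 120.3, 124 and 110.2 CPM in ImmAMs (log2 4.92 ± 0.469, adjusted p = 3.5e-06). The level of Ccr2 in mAM_KO replicate 4 was 12.9 CPM. Cxcr4 rose from 113 ± 7.296 to 281 ± 6.004 CPM, Ptafr, the receptor for platelet-activating factor, from 31.1 ± 9.91 to 164 ± 6.04 CPM, and Cmklr1, the chemerin receptor, from 7 reads in the mAM libraries to 979 (ratio of CPM 154, interval 74.5 to 384). The formyl peptide receptor genes Fpr1 and Fpr2 fell from 325 ± 68.3 to 57.6 ± 1.14 CPM (log2 -2.47 ± 0.114, adjusted p = 6.31e-09) and from 148 ± 41.9 to 38.2 ± 5.24 CPM, and with C5ar1 and C5ar2 they made up the receptors that fell. Among chemokines, 6 of 17 tested genes rose, with Cxcl16 at 7.59, 4.44 and 9.004 CPM in mAMs and 111, 116 and 116 CPM in ImmAMs (log2 4.09 ± 0.233, adjusted p = 3.56e-08), and 2 fell, one of them Cx3cl1 (fractalkine) at 43.97, 45.6 and 28.9 CPM in mAMs and 7.6, 6.05 and 5.22 CPM in ImmAMs (log2 -2.64 ± 0.169, adjusted p = 1.08e-07). Ccl24 had 0 reads in the mAM libraries and 98 in the ImmAM libraries, which at 3 reads over the mAM group is at least 36-fold higher (adjusted p up to 0.0769 in the alternatives), and Ccl2 22 and 200 (ratio 10, interval 6.44 to 16.4, adjusted p = 0.02302, lost without mAM_KO replicate 2 or 3, and up to 0.0797 in the alternatives). Without mAM_KO replicate 2, 2 chemokine genes were called higher instead of 6, and without an ImmAM library, which left 14 tested, 1 was without replicate 2 or 3 and 2 without replicate 4. Cmklr1, Ccl24 and Ccl2 reached the filter only through the ImmAM libraries, so the filter set their direction.

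Monocyte genes did not move as one. Of 30 tested genes of monocytes and recruited macrophages, 17 rose and 5 fell (median 1.05). S100a4 and S100a6, calcium-binding proteins, rose from 19.6 ± 9.09 to 105 ± 4.18 CPM and from 30.4 ± 17.1 to 236 ± 25.4 CPM, where mAM_KO replicate 4, at 35.3 and 64.95 CPM, lay above the other mAM_KO libraries. S100a4 shares 46.4% of its windows with an overlapping predicted gene. Cd14, a co-receptor for LPS, was at 82.2, 62.6 and 77.7 CPM in mAMs and 265, 276 and 273 CPM in ImmAMs (log2 1.88 ± 0.1099, adjusted p = 4.57e-08). Of the genes that fell, Treml4, a receptor of the TREM family, was at 30.5, 36.9 and 29.1 CPM in mAMs and 3.49, 2.85 and 3.12 CPM in ImmAMs (log2 -3.35 ± 0.133, adjusted p = 1.58e-09), Cd300e fell from 11.9 ± 3.002 to 0.646 ± 0.4495 CPM and Fcgr4 from 109 ± 7.41 to 23.4 ± 2.69 CPM. The 6 monocyte markers in the table summed to 51.5 to 67.8 CPM in mAMs, 71.1 to 80.4 CPM in mAM_WT and 89.01 to 98.4 CPM in ImmAMs, and Ly6c2 and Plac8 are not in the table.

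**Figure D4:**
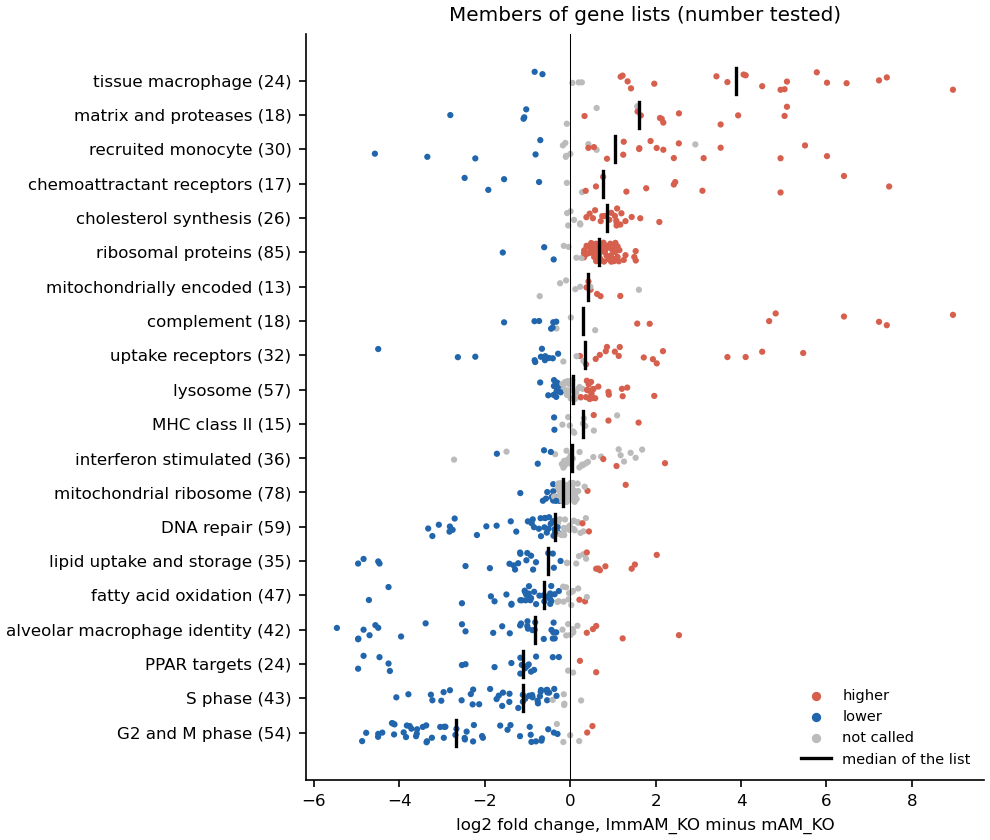
Log2 fold change of ImmAM_KO against mAM_KO (horizontal axis) of each tested member of 20 gene lists, 1 point per gene, coloured by its call, with the median of each list as a black bar and the number tested in parentheses. The medians run from 3.87 for the tissue macrophage list to -2.68 for the G2 and M phase list, and all 26 cholesterol synthesis genes are either higher or not called.

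Genes of matrix and its breakdown rose, 11 of 18 tested against 4 that fell (median 1.61). Fn1 (fibronectin) was at 1392, 1438 and 1681 CPM in mAMs and 6689, 7168 and 6512 CPM in ImmAMs (log2 2.18 ± 0.121, adjusted p = 2.83e-08). Mmp12, the macrophage elastase, was at 58.1, 26.1 and 74.2 CPM in mAMs and 1627, 1547 and 1707 CPM in ImmAMs (log2 5.07 ± 0.3102, adjusted p = 6.91e-08). Mmp14, a membrane-bound collagenase, was at 2.98, 0.998 and 2.69 CPM in mAMs and 60, 75.1 and 60.3 CPM in ImmAMs. Timp2, which acts with it on other proteases, rose from 114 ± 36.8 to 488 ± 9.97 CPM. Mmp8 was at 158, 72.3 and 303 CPM in mAMs and 887, 851 and 914 CPM in ImmAMs (log2 2.54 ± 0.356, adjusted p = 9.67e-05), and the urokinase gene Plau rose from 31.5 ± 6.54 to 92.7 ± 4.26 CPM. Tgm2 and Mmp19 fell from 587 ± 85.3 to 277 ± 20.9 CPM and from 289 ± 50.7 to 134 ± 6.08 CPM. Among integrins other than the gated Itgam, Itga4 rose from 322 ± 88.5 to 742 ± 42.9 CPM, Itgb7 from 4.097 ± 1.69 to 38.7 ± 0.639 CPM and Itga5 from 152 ± 16.9 to 261 ± 20.5 CPM. Itgad fell from 26.5 ± 19.4 to 1.11 ± 0.123 CPM. Itgax (CD11c), whose promoter drives the Cre, fell from 1793 ± 137 to 1425 ± 25.8 CPM (log2 -0.33 ± 0.0748, adjusted p = 0.00375).

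Growth factor receptors and their signals were mixed. Csf1r, the receptor for M-CSF, was at 456, 409 and 466 CPM in mAMs and 1037, 1109 and 1023 CPM in ImmAMs (log2 1.25 ± 0.0821, adjusted p = 1.27e-07), and its ligand gene Csf1 at 4.22, 1.34 and 3.19 CPM in mAMs and 43.2, 41.4 and 37.3 CPM in ImmAMs (log2 3.95 ± 0.356, adjusted p = 2.1e-06). The genes of the GM-CSF receptor, Csf2ra and Csf2rb, did not pass the test (0.25 and -0.15), while Stat5a and Stat5b, which act after it, fell from 58.3 ± 9.01 to 37.3 ± 3.04 CPM and from 95.4 ± 2.85 to 76.5 ± 3.27 CPM. Tgfbr2, a TGF-β receptor, was at 589, 572 and 610.4 CPM in mAMs and 330.1, 330 and 320.5 CPM in ImmAMs (log2 -0.85 ± 0.0662, adjusted p = 5.7e-07), Tgfbr1 did not pass the test (0.21), and Smad7, a target and inhibitor of the pathway, rose from 4.404 ± 0.748 to 13.8 ± 1.42 CPM. Rbpj, the DNA-binding partner of Notch, was at 75.2, 56.8 and 76.7 CPM in mAMs and 219, 212 and 219 CPM in ImmAMs (log2 1.65 ± 0.124, adjusted p = 4.17e-07), with 9.75% of its windows shared with a pseudogene and others, and Notch1 rose by 0.39 on the log2 scale, with an adjusted p up to 0.0633 in the alternatives.

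Among 53 tested myeloid transcription factors, 16 rose and 17 fell. Irf4 was at 13.3, 10.5 and 16.8 CPM in mAMs and 59.5, 54.5 and 65.4 CPM in ImmAMs (log2 2.17 ± 0.193, adjusted p = 1.82e-06), Irf5 rose from 69.04 ± 3.86 to 182 ± 5.91 CPM, Irf8 from 119 ± 11.4 to 174 ± 12.02 CPM, Zeb2 from 325 ± 29.8 to 532 ± 30.5 CPM and Cebpa from 448 ± 22.4 to 622 ± 32.6 CPM. mAM_KO replicate 4 was at 643 CPM for Cebpa, above the mean of the ImmAM libraries, and the call was lost with it in the fit (adjusted p up to 0.0731). Those that fell included Nr1h3, Egr2 (101 to 44.4 CPM), Rara, a retinoic acid receptor (159.6 to 75.4 CPM), Vdr, the vitamin D receptor (62.8 to 44.1 CPM, adjusted p up to 0.0908 in the alternatives), Id1 (22.02 to 9.44 CPM), Runx2 (93.2 to 63.2 CPM) and Klf2 (16.99 to 10.4 CPM). Spi1 (PU.1), the master factor of the myeloid lineage, was at 353, 368 and 319 CPM in mAMs and 243, 265 and 241 CPM in ImmAMs (log2 -0.47 ± 0.0947, adjusted p = 0.00159). Cebpb, Bhlhe40 and Klf4 did not pass the test, with log2 fold changes of -0.07, 0.17 and -0.17. Of 50 genes that the study's text names from its RNA-seq or as RXR targets, 13 rose and 18 fell, and since the study chose part of them on these libraries the counts are no independent evidence of a direction.

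Receptors for uptake moved in both directions, 17 of 32 tested genes higher and 12 lower. When any 1 ImmAM library was left out, 29 passed the filter, with 12 or 13 higher and 11 lower. The inhibitory Fcγ receptor gene Fcgr2b was at 234, 167 and 306 CPM in mAMs and 1030, 1017 and 1041 CPM in ImmAMs (log2 2.17 ± 0.183, adjusted p = 1.15e-06), and the activating ones Fcgr4 and Fcgr1 fell, Fcgr1 from 77.6 ± 5.16 to 51.4 ± 1.44 CPM. Clec4d and Clec4e, lectins for mycobacterial lipid, rose from 36.3 ± 2.88 to 138 ± 1.5 CPM and from 74.6 ± 8.004 to 135 ± 10.97 CPM. Axl, a receptor for dying cells as Mertk is, was at 2267, 2134 and 2043 CPM in mAMs and 1308, 1358 and 1330 CPM in ImmAMs (log2 -0.69 ± 0.0677, adjusted p = 4.63e-06). Lilrb4a rose from 1095 ± 159 to 2391 ± 171 CPM, and mAM_KO replicate 4 was at 532 CPM. Among 21 tested genes of Toll-like receptor sensing, 7 rose, with Tlr9 at 0.669, 0.276 and 1.52 CPM in mAMs and 12.9, 14.4 and 10.3 CPM in ImmAMs (log2 4.24 ± 0.598, adjusted p = 0.000104) and Ly86 (22.5 to 104 CPM), and 3 fell, Tlr5 (23.2 to 11.02 CPM), Myd88 (119.7 to 75.1 CPM) and Irak4 (56.9 to 39.8 CPM). Tlr2 and Tlr4 did not pass the test (-0.19 and -0.26).

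Of 26 cytokines and regulators of inflammation, 14 rose and 4 fell (median 0.39). Il1b was at 25.9, 12.3 and 8.45 CPM in mAMs and 49.1, 49.4 and 46.6 CPM in ImmAMs (log2 1.80 ± 0.342, adjusted p = 0.00111). Il1rn, its natural antagonist, was at 311, 273 and 261 CPM in mAMs and 119.8, 119 and 141 CPM in ImmAMs (log2 -1.15 ± 0.0967, adjusted p = 1.1e-06). Il18 fell from 221 ± 29.7 to 54.1 ± 5.21 CPM (log2 -2.03 ± 0.104, adjusted p = 1.38e-08). Igf1 and Pdgfb, growth factors for other lung cells, rose from 22.1 ± 6.04 to 72.3 ± 8.04 CPM and from 1.85 ± 0.824 to 14.5 ± 1.08 CPM. Tnf did not pass the test (log2 -0.84 ± 0.317, adjusted p = 0.0525). Of the interferon-stimulated genes 3 of 36 were higher and 4 lower, both below the shares among all genes, but without mAM_KO replicate 1, 8 of 35 were higher and 5 lower, and with limma-voom 8 of 36 and 4. Of 15 tested genes of MHC class II presentation 3 rose, the costimulators Cd80 and Cd86 and the protease Ctss, and 2 fell, shares of 20% and 13.3% against 17.7% and 20.2% of all genes. Without mAM_KO replicate 1, 5 rose and 1 fell, and 1 also fell without mAM_KO replicate 2 or ImmAM replicate 4. Cd74, the invariant chain, was at 145, 53.9 and 85.1 CPM in mAMs and 101, 106 and 121 CPM in ImmAMs and at 247 CPM in mAM_KO replicate 4 (log2 0.32 ± 0.319, adjusted p = 0.466).

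Lysosomal genes moved both ways, 21 of 57 higher and 14 lower. Among those that rose, the protease gene Ctss was at 3893, 3875 and 4268 CPM in mAMs and 7398, 7147 and 7811 CPM in ImmAMs (log2 0.89 ± 0.0908, adjusted p = 6.23e-06), Ctsk rose from 454 ± 40.7 to 1060 ± 1.07 CPM, Lgmn from 204 ± 33.9 to 468 ± 7.86 CPM and Cd63 from 133 ± 41.5 to 505 ± 13.4 CPM. Of 16 subunits of the proton pump that acidifies the lysosome 8 fell and 2 rose, the former including Atp6v1d (108 to 65.9 CPM). Lipa, the acid lipase that frees stored cholesterol, also fell (1143 to 799 CPM). Lyz2, lysozyme, was at 19630, 18900 and 21190 CPM in mAMs and 27850, 27170 and 30040 CPM in ImmAMs (log2 0.51 ± 0.107, adjusted p = 0.00221), and its call was lost with quantile normalization (adjusted p = 0.184).

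The genes of the cytosolic ribosome rose nearly as a whole, 78 of 85 tested higher and 3 lower (median 0.68). The 3 that fell were Rpl3l, Rpl22l1 and Rpl7l1, paralogs of ribosomal proteins, and the call of Rpl3l was lost without mAM_KO replicate 2 or ImmAM replicate 3 and in 2 other alternatives (adjusted p up to 0.0985). The summed level was 18890 to 20550 CPM in mAM_KO replicates 1 to 3, 27170 CPM in replicate 4, 20470 to 25780 CPM in mAM_WT and 31330 to 33030 CPM in ImmAMs. mAM_KO replicate 4 thus lay nearer to the ImmAM libraries than to its own group, and the mAM libraries also differed among themselves by more than the ImmAM libraries did. These genes have many near-identical copies. The table holds 36 pseudogenes named for ribosomal proteins, and Rpl10-ps1 was at 137, 280.2 and 215 CPM in mAM_KO replicates 1 to 3 and had 0 reads in mAM_KO replicate 4 and in all ImmAM libraries. In mAM_WT it ranged from 38.7 to 222.5 CPM. When the 26 ribosomal protein genes with a named pseudogene were summed with it, all 26 sums were higher in ImmAMs, 23 of them by less than the gene alone. For Rpl10 the log2 ratio of the means fell from 1.002 to 0.45 and for Rps12 from 1.51 to 0.85. Single ribosomal protein genes are therefore uncertain. Mitochondrial ribosome genes did not rise with them (2 of 78 higher, 12 lower), nor did genes of ribosome assembly (2 of 35 higher, 6 lower), both at or under the background. Without mAM_KO replicate 1, 7 mitochondrial ribosome genes were lower, and without mAM_KO replicate 2 or 3 or ImmAM replicate 2, 3 assembly genes were.

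**Figure D5:**
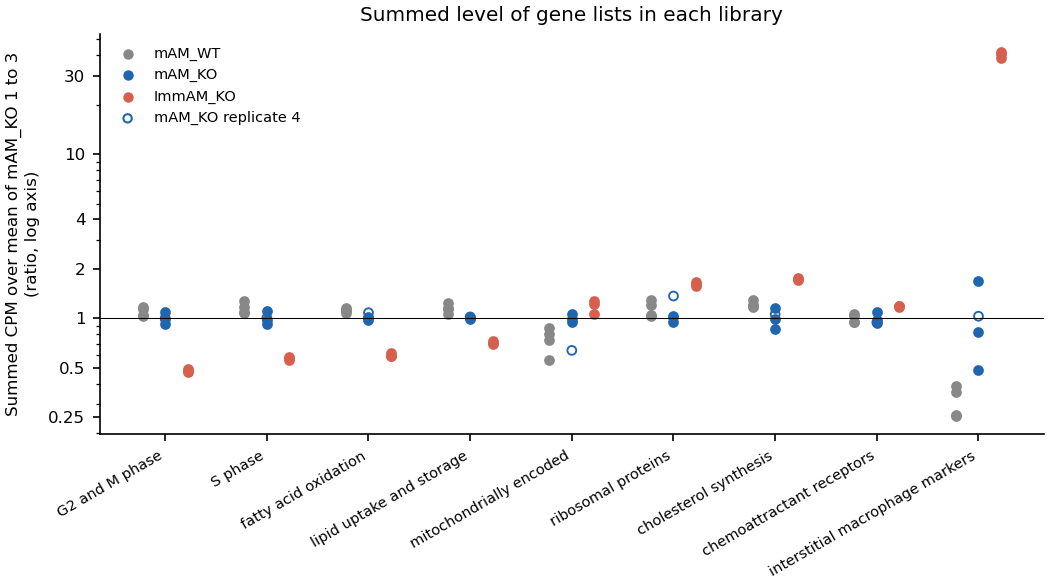
Summed CPM of 9 gene lists in each library, divided by the mean of mAM_KO replicates 1 to 3 (ratio, log axis), for mAM_WT, mAM_KO and ImmAM_KO, with mAM_KO replicate 4 as an open circle. The ImmAM_KO libraries lie below all mAM libraries for cell division and fatty acid genes and above them for cholesterol synthesis and interstitial macrophage markers, while for ribosomal proteins mAM_KO replicate 4 (27170 CPM) lies between the groups and for mitochondrially encoded genes (17780 CPM) below the other mAM_KO and the ImmAM_KO libraries.

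Genes encoded in mitochondria summed to 26390 to 29630 CPM in mAM_KO replicates 1 to 3 and 29490 to 35310 CPM in ImmAMs, with 6 of 13 called higher and 0 lower by limma (0 lower also at an unadjusted p under 0.05, by edgeR and by DESeq2). Without ImmAM replicate 4, 3 were higher, and 4 without ImmAM replicate 2 or mAM_KO replicate 2 and with no variance trend, robust eBayes or the Xist covariate. Without mAM_WT replicate 4, and in a fit of the 6 libraries compared, 7 were higher and 1 lower. mAM_KO replicate 4 was at 17780 CPM and mAM_WT at 15530 to 24480 CPM, so the mAM libraries spread over a wide range. Of 80 nuclear genes of the respiratory chain 5 rose and 19 fell (median -0.07), and the number that rose was 2 without mAM_KO replicate 3 or ImmAM replicate 2, 3 without mAM_KO replicate 2 and 8 without mAM_WT replicate 4. Glycolysis genes moved both ways, 9 of 26 tested higher and 6 lower (median 0.12). Without an ImmAM library, which left 24 tested, 6 or 7 were higher and 6 lower. The summed level of the list was 4422 to 4485 CPM in mAM_KO replicates 1 to 3, 5268 CPM in replicate 4 and 4019 to 4271 CPM in ImmAMs. The glucose transporter gene Slc2a1 rose from 18.7 ± 4.43 to 65.9 ± 5.38 CPM (log2 1.85 ± 0.1599, adjusted p = 1.44e-06). Hk1 and Hk2, the hexokinases of the first step, rose from 24.8 ± 3.63 to 50.5 ± 3.48 CPM and from 65.8 ± 16.01 to 138 ± 11.8 CPM. Pdk1 fell from 44.4 ± 2.48 to 16.03 ± 0.556 CPM and Ldha from 384 ± 12.8 to 240.3 ± 10.2 CPM. Ldhb had 15 reads in mAMs and 473 in ImmAMs (ratio 34.8, interval 20.9 to 62.6). It reached the filter only through the ImmAM libraries, so the filter set its direction.

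Genes that guard against oxidation and handle iron moved in both directions, 9 of 30 higher and 10 lower. Those that fell included Hmox1, which breaks down haem, at 214, 405 and 187 CPM in mAMs and 97.8, 97.8 and 97.1 CPM in ImmAMs (log2 -1.38 ± 0.253, adjusted p = 0.000856), Prdx1 (878 to 499 CPM), Cat (209.9 to 122 CPM) and Gpx1 (438 to 264 CPM), while the iron and metal transporter gene Slc11a1 was at 16.7, 15.3 and 17.98 CPM in mAMs and 117, 122 and 115 CPM in ImmAMs (log2 2.83 ± 0.0999, adjusted p = 5.73e-10). Survival and death genes were called in similar numbers each way (11 of 42 higher, 10 lower). Bcl2, which blocks apoptosis, had 5 reads in mAMs and 111 in ImmAMs (ratio 24.5, interval 10.2 to 76.8), and Casp8 fell from 160.1 ± 8.86 to 92.3 ± 1.71 CPM. Bcl2 reached the filter only through the ImmAM libraries, so the filter set its direction. Anxa2, a membrane-binding annexin, was at 1372, 1574 and 1305 CPM in mAMs and 394, 399 and 411 CPM in ImmAMs (log2 -1.81 ± 0.0803, adjusted p = 4.51e-09).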

How the data were processed

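Bulk RNA-seq of sorted alveolar macrophages (polyA RNA, 60-base single-end reads) was analysed in 11 libraries. The authors trimmed reads with Cutadapt, estimated gene counts with RSEM 1.3.1 on GRCm38 and kept those reaching 1 CPM in 3 or more samples. The deposited values were CPM that the authors scaled by TMM library sizes. All were 0.5 read above a whole number of reads (tolerance 0.01 read), which gave back the reads and depth. The number of libraries and the reads per gene limit the precision.

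Here, log2 of the deposited CPM was fitted with limma 3.58.1 (R 4.3.3; eBayes with a variance trend) in 10 libraries with 3 group means (mAM_WT replicates 1 to 4, mAM_KO 1 to 3, ImmAM_KO 2 to 4), for genes reaching 1 CPM in 3 or more of them, with no added pseudocount. Fold changes are ImmAM_KO minus mAM_KO, SE is that of limma, and adjusted p is Benjamini-Hochberg over all 12889 genes tested, called under 0.05, two-sided. SD is between libraries (n = 3). Whether replicates were separate animals or pools was not taken from the labels. The paper counts n in mice, while each library compared held RNA of both sexes, and the source of this was not tested. The p-values measure the spread between these libraries. A chi-square test of reads found no library deposited in duplicate.

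Members and lists were chosen with earlier results of these data known, and no p over a list is given. Genes named are the 12 largest rises and falls (called, 20 CPM or more in the higher group, no overlap, mAM_KO replicate 4 on the mAM side), those the study names, and up to 3 called members in each direction from each of 37 lists (232 genes), with 96 further genes, nearly all list members, added after their values were seen to give the roles of a list. Some genes that the rule names are not reported here. Car4 was first placed among transcription factors by mistake and was removed from that list. Alternatives were other pseudocounts, filters, scalings, variance models, libraries and fold limits, edgeR 4.0.16, DESeq2 1.42.0 and limma-voom on the recovered reads, a replicate block, Xist level as covariate and leaving out each library. The limma step was tested on simulated data. Promoters are from the RefSeq table (GRCm38.p6), and gene positions and shared windows from GENCODE vM21.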

Additional observations from a re-analysis of the deposited data

Results flagged for a closer look

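In the 4 mAM_KO libraries of the reported genes and list sums, and in mAM_WT for the sums, 1 library was tested for lying apart from the other 3 (Dixon's test at the 95% level). Chance flags about 1 in 20 such sets, and 8 of 234 (3.42%) were flagged, 3 of them for mAM_KO replicate 4, which was outside the fit.

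In mAM_KO replicate 4, Mrc1 was at 2304 CPM against 2600 to 2660 CPM in the others, Npc2 at 525.8 CPM against 461.8 to 466.6 CPM, and Mybl2 at 8.50 CPM against 4.27 to 4.90 CPM. Inside the fit, Cx3cl1 was low in mAM_KO replicate 3, at 28.9 CPM against 44.0 to 45.6 CPM, and Smpdl3a high in the same library, at 380.8 CPM against 302.1 to 303.5 CPM. Rbpj was low in mAM_KO replicate 2, at 56.8 CPM against 75.2 to 76.7 CPM, and Gpat3 in replicate 1, at 35.8 CPM against 38.5 to 38.8 CPM. The 3 B cell genes summed to 6.59 CPM in mAM_WT replicate 3 against 0.568 to 1.19 CPM in the others. No cause was tested.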

How the results depend on the processing

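Over all alternatives that change the fit, 3894 to 5292 genes were called against 4891, and none of the genes named by the rule or in the text changed direction while called. Leaving out 1 library gave 3971 to 5278 calls, 1740 to 2475 higher and 2175 to 2803 lower. A fold of at least 1.5 left 2800 calls (1462 higher, 1338 lower) and of at least 2 left 1667 (890 higher, 777 lower). Limma-voom called 2370 higher and 2358 lower. Of the genes named by the rule or in the text, 293 were called, and 256 kept the call in every alternative that tested them. Some of these failed the filter in part of the alternatives, C1qa, C1qb and C1qc among them, tested in 24 of 27. Deviations from the group means were nearly uncorrelated between same-numbered libraries (correlation -0.07 to 0.06). With so few such pairs this cannot tell whether they came from the same mice. With the replicate number as a block 3894 genes were called in 10 libraries and 4721 in 11, and of the genes in the text the calls of Notch1, Lbr, Cdkn2a, Echs1, Txnip, Ccl24, Ccl2 and Vdr were lost in 10 libraries and those of Cdkn2a and Cebpa in 11. With the block in 10 libraries 7 MHC class II genes were higher and 1 lower, 5 survival and death genes and 7 mitochondrial ribosome genes were lower, and 0 fatty acid oxidation genes were higher.

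List medians (log2) that moved by more than the spread between replicates were, with a pseudocount of 0.5 and 1 CPM, 1.92 and 1.39 for the tissue macrophage list, -0.93 and -0.84 for S phase and -2.33 and -2.01 for G2 and M. With a filter at 5 CPM they were 3.04 for the tissue macrophage list, 0.014 for complement, 0.024 for LXR targets, 0.039 for glycolysis, 1.88 for matrix, 0.27 for uptake receptors and -0.023 for S100 and annexins. With quantile normalization they were -0.73 for identity genes, -0.41 for lipid storage, 0.33 for cytokine receptors, 0.43 for uptake receptors and -0.016 for antioxidant genes. edgeR gave 3.26 and DESeq2 3.30 for the tissue macrophage list, and the Xist covariate 0.28 for uptake receptors. With all 11 libraries they were 0.49 for complement, -0.18 for the respiratory chain, -0.21 for the mitochondrial ribosome, 0.37 for integrins, 0.14 for lipid-associated macrophage genes and -0.022 for S100 and annexins. With the replicate block they were 0.25 for interferon genes, -0.45 for lipid storage and 0.11 for the lysosome in 10 libraries. In 11 libraries with the block they were 3.47 for the tissue macrophage list, 0.54 for complement, -0.22 for the respiratory chain, 0.72 for mitochondrially encoded genes, 0.56 for the ribosome, -0.25 for the mitochondrial ribosome, 0.34 for cytokine receptors, 0.42 for integrins, 0.12 for lipid-associated macrophage genes, 0.42 for uptake receptors and -0.011 for S100 and annexins. Leaving out 1 library gave 0.69 to 1.07 for monocyte genes, 1.33 to 4.36 for the tissue macrophage list, -0.33 to 0.34 for complement, 0.012 to 0.37 for interferon genes, 0.040 to 0.14 for glycolysis, -0.18 to -0.11 for the mitochondrial ribosome, 0.044 to 0.099 for the lysosome, 0.36 to 0.85 for chemokines, 0.015 to 0.20 for Toll-like receptor genes, 0.26 to 0.43 for integrins, 0.19 to 0.40 for uptake receptors and -0.011 to 0.13 for S100 and annexins. Without an ImmAM library fewer genes passed the filter. The other causes were not tested.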
